A study of Homo sapiens with 24 samples.

Results

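The genes described here are those whose symbol begins with SLC25A, the name of the mitochondrial carrier family. They were found by that symbol in the platform annotation, with 1 probe set kept per gene, and came to 7 of the 14884 genes tested. The name of the family holds for only 2 of them, SLC25A15 and SLC25A2, which encode carrier proteins. Another 4 are antisense RNA genes named after the carrier gene beside or opposite them (SLC25A25-AS1, SLC25A21-AS1, SLC25A5-AS1 and SLC25A48-AS1), and 1 is a transcribed pseudogene (SLC25A51P4). RefSeq lists 48 protein-coding SLC25A genes, and those other than SLC25A15 and SLC25A2 are not analysed here.

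Carriers of this family sit in the inner mitochondrial membrane, where each exchanges particular small molecules between the cytosol and the matrix. They are made in the cytosol and brought in by the TOM complex of the outer membrane, small TIM chaperones between the membranes, and the TIM22 complex of the inner membrane. SLC25A15 takes ornithine into the matrix, where ornithine transcarbamylase (OTC) turns it into citrulline for the urea cycle. This is a pathway of hepatocytes, and inherited loss of SLC25A15 causes a hyperammonaemia syndrome. SLC25A2 is a second ornithine carrier, made from a gene without introns. Antisense RNA genes are transcribed from the strand opposite a protein-coding gene or its flank, and for most of them no function is settled.

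Affymetrix whole-transcript arrays, 24 in number, measured the RNA of HepG2 cells. HepG2 is an established line from a human liver tumour and makes many hepatocyte proteins. The cells were plated at 10000 per well, and every group, controls included, had the same concentration of DMSO in its medium. BRD8518, a small molecule named only by this code in the labels, was given at 1 µM for 1 h (3 arrays), 6 h (2 arrays) or 24 h (3 arrays). Oncostatin M (OSM), a cytokine of the interleukin-6 family that signals through STAT3 in hepatocytes, was given at 100 ng/mL for 1 h (3 arrays) or 24 h (3 arrays). The controls received DMSO alone for 1 h (3 arrays), 6 h (4 arrays) or 24 h (3 arrays). OSM at 6 h is not analysed here. A level is a log2 value on 1 array, and a change is a difference between group means on the log2 scale with its standard error (SE). A gene is said to have risen or fallen where limma's moderated test gave a Benjamini-Hochberg adjusted p under 0.05 over all 14884 genes. Nothing in the labels says that the arrays of a group came from separate cultures, so a p-value sets a difference against the spread of these arrays alone, and that spread may be technical.

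One array stood apart before any comparison. The deviations of DMSO 6 h replicate 2 from its group means over all genes had an SD of 0.33, against 0.10 to 0.19 on the other 23 arrays. It was the highest of the 4 DMSO 6 h arrays for 6 of the 7 SLC25A genes. The 6 h differences of SLC25A15 and SLC25A25-AS1 are therefore given with and without it. Other changes at 6 h include it unless stated. Of 8 hepatocyte and HepG2 marker genes 6 were measured, and their summed level lay between 63.8 and 67.3 in all groups, with group means of albumin (ALB) from 12.2 to 12.4. Single markers ranged more widely between groups, FGB from 9.76 to 11.7, APOA1 from 7.91 to 8.89 and TTR from 9.85 to 10.6. Of 8 marker genes of other cell types 3 were measured, with a summed level of 17.4 to 18.5. The stromal gene DCN stayed at 2.27 to 2.42 and the endothelial gene PECAM1 at 5.23 to 5.81, while CD68, a lysosomal protein that marks macrophages, was at 9.57 to 10.8. The labels also carry a position letter of unstated meaning, which is given beside the results it touches.

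Both SLC25A genes that changed have a promoter in the RefSeq table (build GRCh38.p14), and the 250 bases before their start sites are shown to set the composition of the windows side by side. For SLC25A15 (chr13:40789361-40789610, plus strand) capitals mark the GC box GGGCGG or its reverse complement. For SLC25A25-AS1 (chr9:128118735-128118984, minus strand) capitals mark the repeated unit CATCC, which was looked for after the window was seen. Both sequences read 5′ to 3′ in the direction of transcription.
SLC25A15: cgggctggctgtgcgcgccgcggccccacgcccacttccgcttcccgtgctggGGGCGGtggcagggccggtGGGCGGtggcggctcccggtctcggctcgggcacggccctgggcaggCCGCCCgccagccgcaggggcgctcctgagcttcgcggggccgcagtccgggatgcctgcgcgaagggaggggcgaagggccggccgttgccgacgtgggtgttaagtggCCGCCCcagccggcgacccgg
SLC25A25-AS1: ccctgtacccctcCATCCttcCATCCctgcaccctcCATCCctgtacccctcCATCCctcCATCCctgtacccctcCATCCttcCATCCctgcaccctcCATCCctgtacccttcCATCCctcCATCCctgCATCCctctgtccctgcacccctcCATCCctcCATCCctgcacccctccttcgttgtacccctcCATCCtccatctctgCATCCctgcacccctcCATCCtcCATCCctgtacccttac
The SLC25A15 window is 79.6% G and C, against a median of 58% over the 35114 promoter windows of the table, and holds 4 GC boxes. GC boxes, which Sp1-type factors bind, were found on either strand in 42.6% of all windows. The SLC25A25-AS1 window is 61.6% G and C and holds the unit CATCC 17 times, while the median window holds it 0 times, and 1 window of the 35114, its own, holds as many. The unit was counted in the direction of transcription alone, so windows with its reverse complement were not counted. Neither window holds the STAT palindrome TTCNNNGAA (6.57% of all windows), the AP-1 site TGANTCA (6.57%), the E-box CACGTG (6.35%) or the CCAAT box CCAAT (32% of all windows), each searched on both strands. A match is only a run of letters, and its absence says nothing of a factor's action elsewhere at the gene. Of the 7 genes 5 had a promoter in the table, and the other antisense genes with one are SLC25A21-AS1, SLC25A5-AS1 and SLC25A48-AS1. The windows of SLC25A5-AS1, which passed in no comparison, are 73.6% G and C and also hold GC boxes.

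SLC25A15, the ornithine carrier, fell after 24 h of BRD8518. Its levels were 7.90, 7.94 and 7.97 on the BRD8518 24 h arrays and 8.58, 8.55 and 8.65 on the DMSO 24 h arrays. The groups did not overlap, and the BRD8518 24 h arrays were also below all arrays of the other 7 groups. The change was -0.66 ± 0.09 (SE, n = 3 and 3), a level 1.58-fold lower, with an adjusted p of 6.18e-06 in limma. Of all genes tested, 27.7% were called in this comparison, 12.1% higher and 15.6% lower, so 1 call among 7 genes is no larger a share than that of all genes. The change was between -0.68 and -0.63 under all 16 alternatives tried. The 24 h arrays carry position letter A except DMSO 24 h replicate 3, and without that array the change was -0.63 with an adjusted p of 8.23e-05. The promoter of this gene is the GC-rich window above, and a link between that composition and the fall was not tested. In bulk samples fewer cells with a transcript and less of it per cell cannot be told apart.

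The earlier BRD8518 arrays showed no such fall. At 1 h SLC25A15 stood at 8.50, 8.64 and 8.54 with BRD8518 and at 8.47, 8.44 and 8.55 with DMSO, and the groups overlapped. That difference was 0.07 ± 0.09 with an adjusted p of 1 (0.255% of all genes called, 0.222% higher). At 6 h the levels were 8.58 and 8.54 with BRD8518 and 8.51, 8.97, 8.63 and 8.55 with DMSO, where 8.97 is the array that stood apart. The 6 h difference was -0.10 ± 0.10 (n = 2 and 4, adjusted p = 0.596), in a comparison where 14.5% of all genes were called, 5.62% higher and 8.86% lower. Without DMSO 6 h replicate 2 it was 0.00 ± 0.07 (adjusted p = 0.99), so the sign of this small difference rests on that array. The change at 24 h minus the change at 6 h was -0.56 ± 0.13, with an adjusted p of 0.00761 in limma, where 11.1% of all genes were called and 5.12% were called lower. It was -0.66 ± 0.09 (adjusted p = 1.69e-05) without DMSO 6 h replicate 2, and missed the threshold in a fit of these 4 groups alone (adjusted p = 0.0699). With the position letter as a fixed term it was -0.53 with an adjusted p of 0.0257.

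OSM left SLC25A15 closer to the control. At 24 h its levels were 8.47, 8.38 and 8.31, all below the 3 DMSO 24 h arrays, with a difference of -0.20 ± 0.09 and an adjusted p of 0.207, where 10.3% of all genes were called, 4.60% higher and 5.65% lower. The 95% interval ran from -0.39 to -0.01. This difference passed the threshold with array weights (-0.22, adjusted p = 0.00611) and in a fit without DMSO 6 h replicate 2, which leaves the difference as it is and narrows its error (adjusted p = 0.0181). At 1 h the OSM levels were 8.51, 8.40 and 8.45, and they overlapped with DMSO (-0.04 ± 0.09, adjusted p = 0.963). BRD8518 and OSM themselves differed at 24 h by -0.45 ± 0.09 with an adjusted p of 0.000674, in a comparison where 23.2% of all genes were called and 12.3% were called lower. At 1 h they differed by 0.11 ± 0.09 (adjusted p = 0.837).

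In the order of group means SLC25A15 was lowest in BRD8518 24 h at 7.93 ± 0.04 (SD), followed by OSM 24 h at 8.39 ± 0.08. Then came OSM 1 h at 8.45 ± 0.05, DMSO 1 h at 8.49 ± 0.06, BRD8518 1 h at 8.56 ± 0.07, BRD8518 6 h at 8.56 (2 arrays), DMSO 24 h at 8.59 ± 0.05 and DMSO 6 h at 8.66 ± 0.21. From OSM 24 h upward every group overlapped with the next in its single arrays. The step from BRD8518 24 h to OSM 24 h was the only one between neighbours without overlap.

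SLC25A25-AS1 rose within 1 h of OSM. This antisense RNA gene lies next to SLC25A25, which encodes a calcium-regulated carrier of ATP-Mg and phosphate. Its levels were 6.73, 7.20 and 6.98 on the OSM 1 h arrays and 6.20, 6.18 and 6.07 on the DMSO 1 h arrays. The groups did not overlap, and the OSM 1 h arrays were above every other array of the series. The change was 0.82 ± 0.13 (SE, n = 3 and 3), a level 1.77-fold higher, with an adjusted p of 0.000197 in limma. In this comparison 2.84% of all genes were called and 2.03% were called higher. The change was between 0.71 and 0.94 under all 16 alternatives, with adjusted p-values of at most 0.00797. OSM 1 h and DMSO 1 h arrays share position letter B.

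BRD8518 did not raise the same RNA at 1 h. Its levels there were 6.04, 6.17 and 6.02, with a difference from DMSO of -0.07 ± 0.13 (95% interval -0.33 to 0.19, adjusted p = 1). BRD8518 stood below OSM at 1 h by -0.89 ± 0.13 with an adjusted p of 7.58e-05, where 2.34% of all genes were called and 1.50% were called lower. BRD8518 1 h replicates 2 and 3 carry position letter C, and with the letter as a fixed term, which leaves replicate 1 to set that group, the difference was -0.93 with an adjusted p of 0.0108. At 6 h the levels were 6.06 and 5.99 with BRD8518 and 6.04, 6.61, 6.24 and 6.09 with DMSO, where 6.61 is the array that stood apart. The difference at 6 h was -0.22 ± 0.13 (adjusted p = 0.331), and -0.10 ± 0.11 (adjusted p = 0.599) without that array. At 24 h the levels were 6.12, 6.28 and 6.28 with BRD8518 and 6.19, 6.16 and 6.26 with DMSO, a difference of 0.03 ± 0.13 (adjusted p = 0.925).

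After 24 h of OSM the levels of SLC25A25-AS1 were 6.25, 6.56 and 6.55, so that 2 arrays lay above DMSO 24 h and 1 within its range. The difference of 0.25 ± 0.13 had an adjusted p of 0.274, and passed the threshold with array weights (0.30, adjusted p = 0.02). The change at 24 h minus that at 1 h was -0.57 ± 0.18 with an adjusted p of 0.0927 in limma, where 3.37% of all genes were called. Of 22 alternatives it passed in 4, among them the fits without OSM 1 h replicate 1 (-0.69, adjusted p = 0.0361) and without DMSO 6 h replicate 2 (adjusted p = 0.0141). BRD8518 against OSM at 24 h gave -0.23 ± 0.13 (adjusted p = 0.231), and passed with array weights (-0.26, adjusted p = 0.0262).

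In the order of group means SLC25A25-AS1 was highest in OSM 1 h at 6.97 ± 0.23 (SD), then in OSM 24 h at 6.45 ± 0.18. Below them lay DMSO 6 h at 6.25 ± 0.26, BRD8518 24 h at 6.23 ± 0.09, DMSO 24 h at 6.20 ± 0.05, DMSO 1 h at 6.15 ± 0.07, BRD8518 1 h at 6.08 ± 0.08 and BRD8518 6 h at 6.02 (2 arrays). The step from OSM 1 h to OSM 24 h was the only one between neighbours whose arrays did not overlap.

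**Figure D1:**
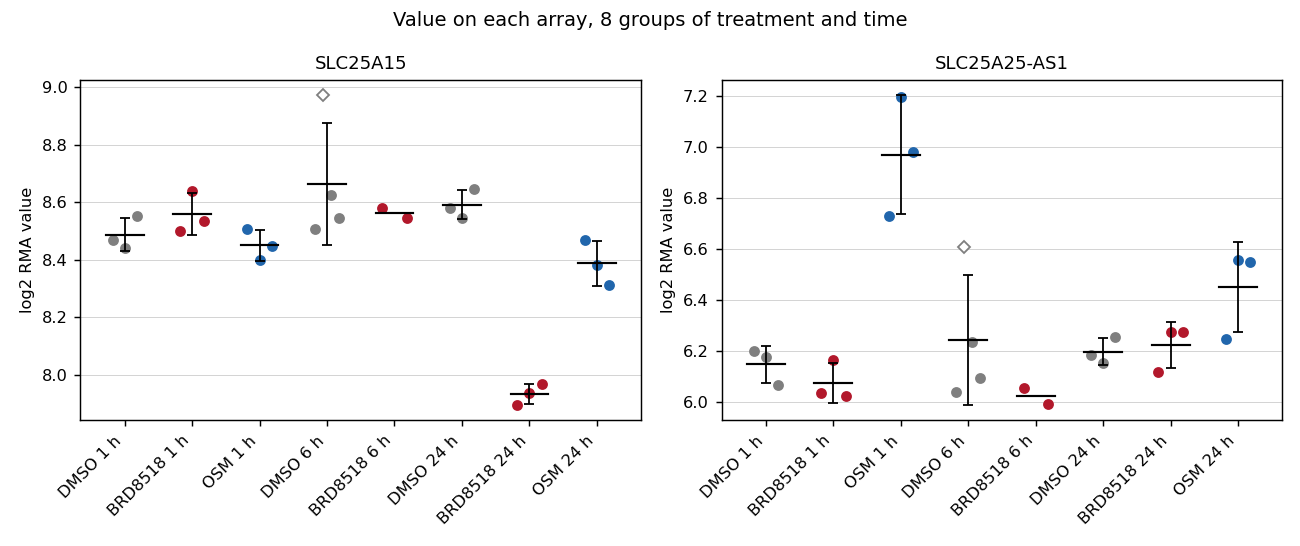
Level on each array (log2 RMA value, y axis) of SLC25A15 and SLC25A25-AS1 in the 8 groups of treatment and time (x axis); points are arrays, horizontal lines group means and bars ± 1 SD where a group has 3 or 4 arrays. The open diamond is DMSO 6 h replicate 2. SLC25A15 is low on the 3 BRD8518 24 h arrays, at 7.90 to 7.97, and SLC25A25-AS1 is high on the 3 OSM 1 h arrays, at 6.73 to 7.20.

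The other 5 SLC25A genes passed the threshold in 0 of the 10 comparisons. SLC25A2, the second ornithine carrier, had group means between 5.46 in DMSO 1 h and 5.68 in DMSO 6 h. Its levels after 24 h were 5.68, 5.59 and 5.68 with BRD8518, 5.53, 5.78 and 5.59 with OSM, and 5.54, 5.42 and 5.50 with DMSO. All BRD8518 24 h arrays lay above the DMSO 24 h arrays, by 0.16 ± 0.11 on average, with an adjusted p of 0.312 and a 95% interval from -0.06 to 0.38. At 6 h the levels were 5.62 and 5.35 with BRD8518 and 5.73, 5.85, 5.62 and 5.51 with DMSO, and the groups overlapped. The change at 24 h minus that at 6 h was 0.36 ± 0.15, with an unadjusted p of 0.031 and an adjusted p of 0.167 (0.30 ± 0.15, adjusted p = 0.187, without DMSO 6 h replicate 2). SLC25A2 and SLC25A15 are close in sequence, and RefSeq lists 5 SLC25A15 pseudogenes, so probes of either carrier may read related transcripts. The SLC25A15 gene also overlaps MIR621 and TPTE2P5 in RefSeq.

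Among the antisense RNA genes, SLC25A21-AS1 overlaps SLC25A21, which encodes a carrier of oxodicarboxylates. Its arrays ran from 5.68 to 6.32 and its group means from 5.89 in OSM 1 h to 6.19 in OSM 24 h. The DMSO 1 h arrays alone, at 6.28, 6.11 and 5.68, spanned more than the group means did. SLC25A5-AS1 overlaps SLC25A5, which encodes an ADP/ATP carrier, and ran from 4.49 to 5.17. Its levels at 1 h were 5.12, 5.08 and 4.81 with BRD8518, 4.89, 4.49 and 4.86 with OSM, and 4.84, 4.91 and 4.76 with DMSO. BRD8518 against OSM gave 0.26 for this gene, with an unadjusted p of 0.027 and an adjusted p of 0.353, and the 2 groups overlapped.

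SLC25A48-AS1, which overlaps SLC25A48, and the pseudogene SLC25A51P4 had means over all arrays of 3.24 each. Of the genes tested, 2388 had a mean under 4, where array values tend to compress changes. SLC25A48-AS1 ran from 2.86 to 3.61, and both ends of that range lay within BRD8518 1 h, at 2.86, 3.61 and 3.48. SLC25A51P4 is derived from the gene of a mitochondrial NAD carrier, and RefSeq lists 4 SLC25A51 pseudogenes. It ran from 2.87 to 3.63, and its DMSO arrays stood at 3.24, 2.94 and 2.87 after 1 h and at 3.54, 3.22 and 3.25 after 24 h. That difference of 0.32 between DMSO 24 h and DMSO 1 h had an unadjusted p of 0.0218 and an adjusted p of 1. Over all genes 0 passed in that comparison in limma, and 424 had an unadjusted p under 0.05.

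**Figure D2:**
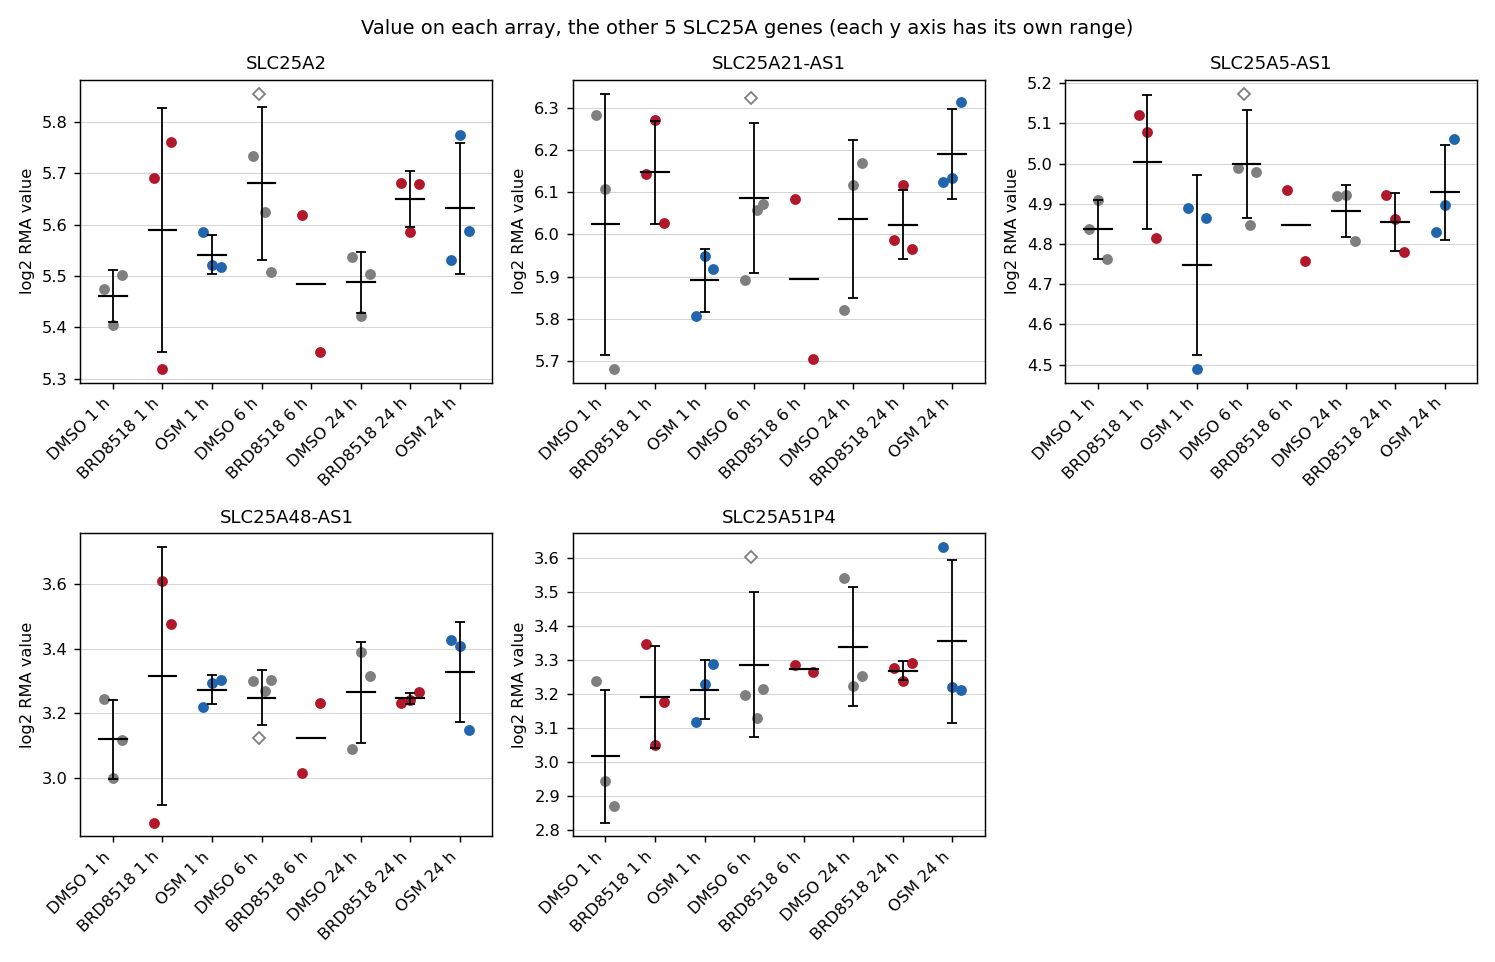
Level on each array (log2 RMA value, y axis, with a range of its own in each panel) of the 5 SLC25A genes that did not pass the threshold, in the 8 groups (x axis); points are arrays, horizontal lines group means, bars ± 1 SD where a group has 3 or 4 arrays, and the open diamond DMSO 6 h replicate 2. Group means of a gene span between 0.21 and 0.34, and arrays of different groups overlap in each panel.

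Across these 5 genes the changes against DMSO ran from 0.12 to 0.20 for BRD8518 at 1 h, from -0.19 to -0.01 at 6 h and from -0.07 to 0.16 at 24 h. For OSM they ran from -0.13 to 0.20 at 1 h and from 0.02 to 0.15 at 24 h. The outermost limits of their 95% intervals over the 5 comparisons with DMSO were -0.49 and 0.48, so changes beyond those sizes lie outside the intervals of all 5 genes. All 5 differences were below 0 for BRD8518 at 6 h, where the array that stood apart was among the controls, and without it SLC25A51P4 stood at 0.09. The median change of the 7 SLC25A genes was 0.13 for BRD8518 at 1 h, -0.15 at 6 h and -0.02 at 24 h, beside medians of 0.02, -0.01 and 0.00 over all genes. With OSM the medians were 0.08 after 1 h and 0.06 after 24 h, beside 0.01 and 0.01 over all genes.

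**Figure D3:**
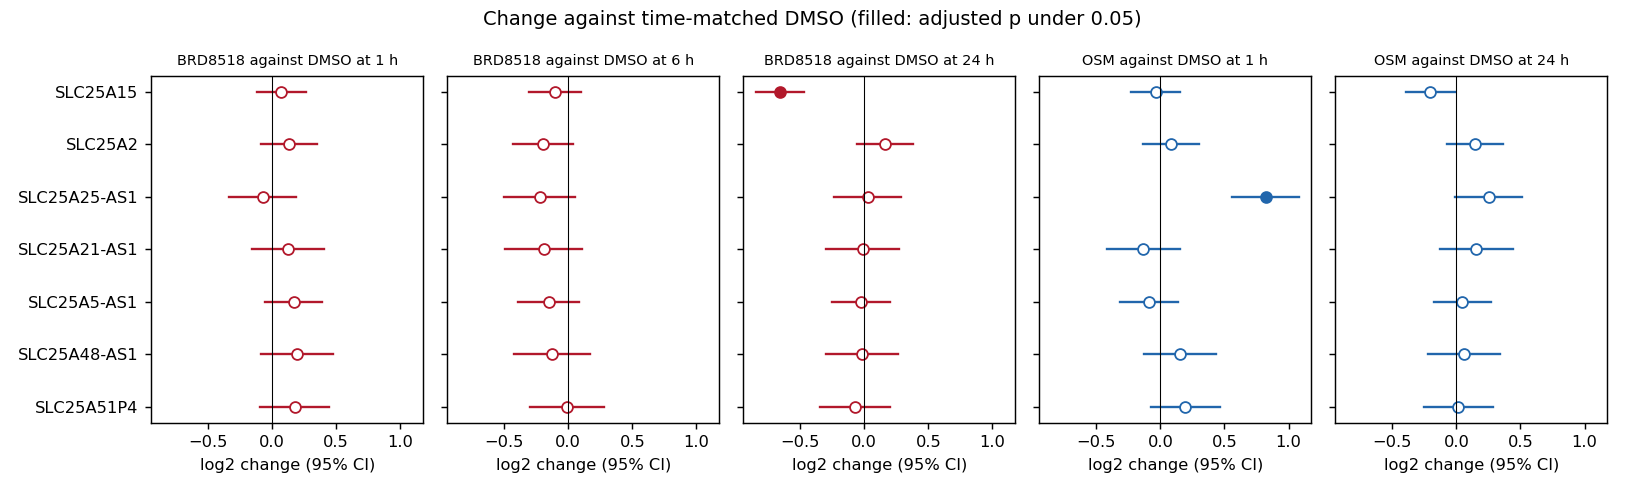
Change against time-matched DMSO (difference of group means on the log2 scale, x axis, with 95% intervals) of the 7 SLC25A genes (y axis) in 5 comparisons; filled points have an adjusted p under 0.05. The filled points are SLC25A15 for BRD8518 at 24 h, at -0.66, and SLC25A25-AS1 for OSM at 1 h, at 0.82.

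Of 5 genes of the family that go by other symbols, MTCH1 and MTCH2 were measured. Both proteins sit in the outer membrane, where MTCH2 inserts helical proteins. MTCH2 stood at 9.76, 9.74 and 9.77 with BRD8518 24 h, at 10.01, 9.85 and 9.81 with OSM 24 h and at 10.23, 10.17 and 10.23 with DMSO 24 h. Both treated groups lay below all DMSO 24 h arrays. DMSO 24 h itself stood above all DMSO 1 h arrays for MTCH2, by 0.15 ± 0.07 (unadjusted p = 0.0342 in limma). MTCH2 fell by 0.45 ± 0.07 with BRD8518 (adjusted p = 1.68e-05) and by 0.32 ± 0.07 with OSM (adjusted p = 0.00284), and those 2 comparisons share their DMSO arrays. BRD8518 and OSM differed by -0.14 ± 0.07 (95% interval -0.28 to 0.01, adjusted p = 0.179). The OSM change of MTCH2 at 24 h minus that at 1 h was -0.33 ± 0.10 and did not pass (adjusted p = 0.0642). MTCH1 changed by -0.01 ± 0.07 with BRD8518 at 24 h and by -0.10 ± 0.07 with OSM, with adjusted p-values of 0.94 and 0.546.

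Of 29 genes for enzymes that use what the carriers move, 14 were measured. After 24 h of BRD8518, 4 of the 14 rose, 4 fell and 6 did not pass, where 12.1% of all genes were called higher and 15.6% lower. Those shares include genes of low level. In a fit of only the 7442 genes above the median level, 3707 were called for BRD8518 at 24 h. For OSM at 24 h that fit called 1523, both counts in either direction. The median change was -0.21 beside 0.00 over all genes. CPT2, the inner-membrane carnitine palmitoyltransferase, fell by 0.80 ± 0.14 and GLUD1, glutamate dehydrogenase, by 0.71 ± 0.12, while MTHFD1L (0.67 ± 0.08) and SHMT2 (0.32 ± 0.08), of mitochondrial one-carbon metabolism, and PCK2 (0.33 ± 0.10), the mitochondrial PEP carboxykinase, rose. PCK2 missed the threshold without BRD8518 24 h replicate 2 (adjusted p = 0.0522) or DMSO 24 h replicate 1 (0.0983). CPT2 was also the 1 call among the 14 after 6 h of BRD8518, where 14.5% of all genes were called. Its change at 6 h was -0.92 ± 0.14 (adjusted p = 8.07e-05), and between -1.11 and -0.73 with 1 array left out. Over all 15 alternatives the 6 h change lay between -1.11 and -0.60. CPT2 stood at 8.19 on DMSO 6 h replicate 2, against 7.56 to 7.71 on the other DMSO 6 h arrays. The 6 h change missed the threshold in a fit of the compared groups alone (adjusted p = 0.0539). At 24 h the change of CPT2 with BRD8518 lay between -0.87 and -0.44 over 16 alternatives, and passed in each. After 24 h of OSM, 2 of the 14 rose, 4 fell and 8 did not pass, where 4.60% of all genes were called higher and 5.65% lower, and the median was -0.16 beside 0.01 over all genes. PC, the pyruvate carboxylase, rose by 1.08 ± 0.11 and CPT1A, the outer-membrane carnitine palmitoyltransferase, by 0.88 ± 0.10, while GLUD1 (-0.68 ± 0.12) and OTC (-0.44 ± 0.11) fell. Without DMSO 24 h replicate 3 the OSM list held 3 calls.

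Among these enzymes OTC takes the ornithine that SLC25A15 brings in. It stood at 3.58, 3.58 and 3.68 with BRD8518 24 h, at 3.38, 3.44 and 3.34 with OSM 24 h and at 3.92, 3.61 and 3.95 with DMSO 24 h. The OSM arrays lay below all DMSO arrays, while the BRD8518 arrays overlapped with them (-0.21 ± 0.11, adjusted p = 0.168). These levels are under 4, and the call with OSM was lost without DMSO 24 h replicate 1 (adjusted p = 0.0519) or 3 (0.0569). ASS1 and ASL, the urea cycle enzymes that follow in the cytosol, did not pass after 24 h of either agent, with adjusted p-values from 0.0596 (ASS1 with BRD8518, -0.21 ± 0.08) to 0.854 (ASL with OSM, -0.07 ± 0.12).

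Of 14 genes of the machinery that imports carriers, 12 were measured. After 24 h of BRD8518, 6 of the 12 fell, 1 rose and 5 did not pass, where 15.6% of all genes were called lower and 12.1% higher. Of the 7442 genes above the median level, 3707 were called in either direction, so the count is less apart from genes of like level. The median change was -0.32 beside 0.00 over all genes. TIMM8A and TIMM10B, small TIM proteins of the space between the membranes, fell by 0.91 ± 0.11 and 0.60 ± 0.06, TIMM22, the inner-membrane insertion channel, by 0.43 ± 0.14 and TOMM22, a receptor of the TOM complex, by 0.42 ± 0.07. The 1 that rose was TIMM9 (0.25 ± 0.09). TIMM22 missed the threshold without BRD8518 24 h replicate 1 (adjusted p = 0.0657) or 3 (0.0664) or DMSO 24 h replicate 3 (0.0729). TIMM9 missed it in 4 of 16 alternatives, and TIMM10, counted among the 6 that fell, in 8 of 16. TOMM40, also counted among them, missed it with the mean of its probe sets (-0.12, adjusted p = 0.384). TIMM8A stood at 6.66, 6.69 and 6.68 with BRD8518 and at 7.64, 7.71 and 7.41 with DMSO, with no overlap. After 6 h of BRD8518 TIMM10B was the 1 call among the 12, where 14.5% of all genes were called. The change of TIMM10B at 6 h was -0.68 ± 0.07 (adjusted p = 1.6e-07), and between -0.71 and -0.64 with 1 array left out. Without DMSO 24 h replicate 3, the array on another position letter, the list held 4 calls. With OSM at 24 h 0 of the 12 passed in limma, 2 had an unadjusted p under 0.05, and the median was -0.04, while 10.3% of all genes were called. Without DMSO 24 h replicate 3 or DMSO 6 h replicate 2 that count was 1, and with array weights it was 2.

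Of 20 other channels and transporters of the mitochondrial membranes, 15 were measured. After 24 h of BRD8518, 6 of the 15 fell, 2 rose and 7 did not pass, beside the same 15.6% and 12.1% of all genes, and the median was -0.03 beside 0.00 over all genes. Here too, 3707 of the 7442 genes above the median level were called in either direction. SFXN2, a sideroflexin, fell by 1.26 ± 0.08, and MPC1 and MPC2, the subunits of the mitochondrial pyruvate carrier, fell by 1.21 ± 0.09 and 1.07 ± 0.08. VDAC3 fell as well (-0.71 ± 0.07), and the 2 that rose were TSPO (0.27 ± 0.09) and VDAC2 (0.26 ± 0.07). TSPO missed the threshold in 5 of 15 alternatives. With OSM at 24 h, 4 of the 15 fell and 0 rose, beside 5.65% and 4.60% of all genes, with a median of 0.00 beside 0.01, and MPC2 (-0.71 ± 0.08) and SFXN2 (-0.54 ± 0.08) were among those that fell. MPC1 stood at 8.24, 8.23 and 8.07 with BRD8518 24 h, at 9.72, 9.52 and 9.60 with OSM 24 h and at 9.40, 9.36 and 9.41 with DMSO 24 h. BRD8518 lay below both other groups with no overlap, and BRD8518 against OSM was -1.43 ± 0.09 for MPC1 (adjusted p = 5.17e-11). After 6 h of BRD8518, 3 of the 15 fell (SFXN2 -0.49 ± 0.09, SFXN5 -0.46 ± 0.08, SFXN3 -0.39 ± 0.08). Another 2 rose (MCU 0.47 ± 0.14, VDAC2 0.29 ± 0.08), beside 8.86% of all genes called lower and 5.62% higher. With 1 array left out MCU ranged from 0.30 to 0.56, VDAC2 from 0.23 to 0.33 and SFXN2 from -0.53 to -0.43. MCU stood at 8.67 on DMSO 6 h replicate 2, against 9.24 to 9.42 on the other DMSO 6 h arrays. Its change without that array was the 0.30. Without 1 of the 2 BRD8518 6 h arrays MCU was 0.41 or 0.53 and VDAC2 0.25 or 0.33. Such fits leave 1 array in that group, and the calls of MCU and VDAC2 rest on both arrays. In a fit of the compared groups alone 0 of the 15 were called.

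Of 12 nuclear regulators of mitochondrial genes 7 were measured. After 24 h of BRD8518, 1 rose and 2 fell, and after 24 h of OSM 1 fell, with medians of 0.03 and -0.02. Over all genes 27.7% and 10.3% were called in these comparisons. Of the 7442 genes above the median level, 3707 and 1523 were called. Counts among 7 genes are too small to be set apart from those shares. MYC, a growth-promoting transcription factor, rose with BRD8518 by 1.10 ± 0.07 at 6 h and 0.68 ± 0.06 at 24 h. It also rose at 1 h, by 0.43 ± 0.06 (adjusted p = 0.000979), where 0.255% of all genes were called. The 1 h change missed the threshold in a fit of the compared groups alone (adjusted p = 0.096). With the position letter as a fixed term, which leaves replicate 1 to set BRD8518 1 h, it was 0.32. The 6 h change of MYC was between 1.07 and 1.13 with 1 array left out. PPARA, a nuclear receptor that drives fatty acid oxidation, fell at 24 h by 0.37 ± 0.11 with BRD8518, and narrowly missed the threshold without DMSO 24 h replicate 1 (adjusted p = 0.05 as rounded). After 6 h of BRD8518 the change of PPARA was -0.46 ± 0.11 (adjusted p = 0.00689), where 14.5% of all genes were called. With 1 array left out it was between -0.61 and -0.32. The -0.32 came without BRD8518 6 h replicate 2, which leaves 1 array in that group, and the call rests on that replicate. In a fit of the compared groups alone the 6 h change of PPARA missed the threshold (adjusted p = 0.169). NRF1, a factor of respiratory chain genes, fell at 24 h by 0.34 ± 0.08 with BRD8518 and 0.31 ± 0.08 with OSM, and the call with OSM was lost without OSM 24 h replicate 3 (adjusted p = 0.0803).

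**Figure D4:**
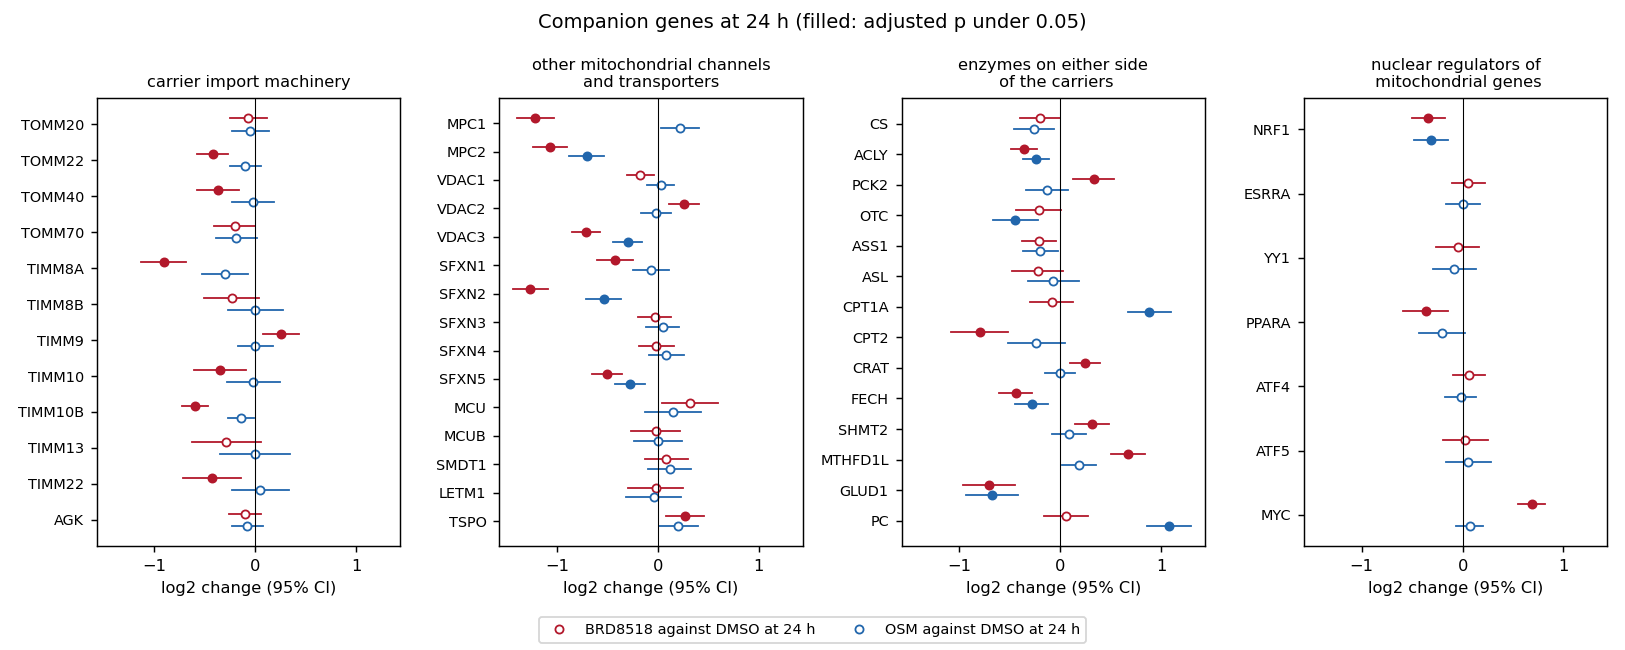
Change at 24 h against DMSO (difference of group means on the log2 scale, x axis, with 95% intervals) of the measured genes of 4 lists (y axis), for BRD8518 (red) and OSM (blue), which share the DMSO arrays; filled points have an adjusted p under 0.05. The import machinery has 7 filled points for BRD8518 and 0 for OSM, beside 27.7% and 10.3% of all genes called. MPC1 and MPC2 lie at -1.21 and -1.07 for BRD8518.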

How the data were processed

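RNA of HepG2 cells was labelled with a whole-transcript kit and hybridised to Affymetrix arrays, per the labels' protocols. The deposited values are RMA values on the log2 scale, which the authors computed with oligo, as the submitters' processing notes name it (versions not given in the sources used here). Over 53617 probe sets they span 0.913 to 13.7, and the median of an array lay between 4.89 and 4.95. No further normalization was applied. RMA gives no detection calls. The platform annotation named 1 gene for 16098 probe sets, several for 0 and none for 37519, which stay unnamed here. Where a gene had several probe sets (779 genes), the brightest on average over the 24 arrays stood for it, and each SLC25A gene had 1.

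The 24 arrays in 8 groups entered 1 fit of group means (limma 3.58.1, R 4.3.3) with empirical Bayes moderation (prior degrees of freedom 5.3, total 21.3). The 10 contrasts were 5 with DMSO, 2 of BRD8518 with OSM, 2 of effects between times and DMSO 24 h against 1 h. Tests were two-sided, and p-values were adjusted by Benjamini-Hochberg over all genes of a contrast. The fit was tested on simulated data. The number of arrays limits the precision, and the SE of a change of an SLC25A gene against DMSO was 0.09 to 0.14.

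The genes and lists were chosen with earlier results of these data known. Named are all 7 SLC25A genes and, of each list, some of the genes called at 24 h or 6 h, with the largest changes foremost. Not every called gene of a list is named. OTC with BRD8518, ASS1, ASL, MYC at 1 h and the comparison of MPC1 between agents were added after their values were seen. Changes without DMSO 6 h replicate 2, with other scalings, filters, weights and moderation, with the position letter and with each array left out were computed as alternatives. No source used here names the genome build of the probe sets. Plots used matplotlib 3.10.9 (Python 3.11).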

Additional observations from a re-analysis of the deposited data

Results flagged for a closer look

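The 4 DMSO 6 h arrays were checked in 40 genes. For 4 of the 40 genes, 1 array lay further from the others than the 95% limit for a gap over the range. Chance passes that limit in about 1 in 20 independent groups. The 40 genes share the same 4 arrays, so their count cannot be set against that rate. The array was DMSO 6 h replicate 2 each time. MTCH1 stood at 10.19 on it and at 9.90 to 9.95 on the other 3 arrays. TOMM40, the pore of the TOM complex, stood at 10.30 against 9.77 to 9.86. TIMM10, a small TIM chaperone, stood at 8.29 against 7.81 on the others, while TIMM22 stood lower, at 9.504 against 10.14 to 10.23. None of the 7 SLC25A genes passed this limit, though the gaps of SLC25A48-AS1 and SLC25A51P4, 0.820 and 0.818 of the range, came near it. The cause of the array's distance was not tested.

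The change of SLC25A15 with BRD8518 differed between times, by -0.56 at 24 h minus 6 h in the test of the difference itself (adjusted p = 0.00761 in limma), with the values without that array given above.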

How the results depend on the processing

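The number of SLC25A genes called in each of the 10 comparisons kept its value under every alternative except in 4 comparisons. For OSM against DMSO at 24 h it went from 0 to 2 with array weights and ranged from 0 to 1 when 1 array was left out, with the 1 reached without DMSO 6 h replicate 2. For BRD8518 against OSM at 24 h it went from 1 to 2 with array weights. For the BRD8518 effect at 24 h minus 6 h it went from 1 to 0 in a fit of the compared groups alone. For the OSM effect at 24 h minus 1 h it went from 0 to 1 with only genes above the median level tested and with array weights, and from 0 to 1 when 1 array was left out (OSM 1 h replicate 1 or DMSO 6 h replicate 2). Differences near 0 changed sign in 3 cases seen, though SLC25A51P4 and the 3 antisense RNA genes never called were not followed 1 by 1 through all alternatives. SLC25A51P4 with BRD8518 at 6 h went from -0.01 to 0.09 without DMSO 6 h replicate 2. SLC25A15 with BRD8518 at 6 h went from -0.10 to 0.0084 with array weights and ranged from -0.15 to 0.0017 with 1 array left out. SLC25A25-AS1 with BRD8518 at 24 h ranged from -0.0010 to 0.0775 with 1 array left out. The cause was not tested.

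Over all genes, calls with array weights went from 38 to 81 (BRD8518 at 1 h), 2155 to 3466 (6 h), 423 to 1125 (OSM at 1 h) and 1526 to 3068 (24 h), and without DMSO 6 h replicate 2 to 76, 3345, 806 and 2535. For BRD8518 against OSM, array weights took them from 349 to 934 at 1 h and 3458 to 5286 at 24 h, and for the effects between times from 1649 to 2866 (BRD8518) and 502 to 1324 (OSM). With the letter as a fixed term they were 15 for BRD8518 at 1 h and 183 against OSM, and in fits of the compared groups alone 452 for BRD8518 at 6 h, 875 between its times and 828 between those of OSM. DMSO 24 h against 1 h had 0 calls, or 1 with the filter, centring, trend and robust moderation, array weights, the letter as a random block or without DMSO 6 h replicate 2. No paired analysis was possible because the replicate numbers follow the order of the samples and the labels give none. Groups of 2, 3 or 4 arrays, values without detection calls and 2 SLC25A genes with a mean under 4 limit what small changes could be seen.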
